A study of Canis lupus familiaris with 12 samples.

Results

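In immortalized canine myoblasts, 90 genes stood at no more than 0.5 times their luciferase level with human DUX4, with canine DUXC and with the isoform DUXC-ALT alike. They were chosen from 12138 gene rows with a luciferase mean of at least 1 read per 1000000 reads (CPM), out of 14736 rows that could be joined across the deposited tables. A row was a member where its mean CPM plus 0.1 in each factor group was at most 0.5 times that in the luciferase group. The choice thus used all 12 libraries and each factor's contrast with luciferase, and those contrasts are given here as descriptions without a test. The contrasts of the factors with each other were not part of the rule and were tested.

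DUX4 of primates and DUXC of dogs and other mammals belong to the double homeobox family, transcription factors that bind DNA through paired homeodomains. DUX4 switches on genes of the early embryo. DUX4 is silent in most adult tissue, and its return in skeletal muscle is the basis of facioscapulohumeral muscular dystrophy. In human and mouse muscle cells DUX4 is known mainly as an activator, and its expression is also accompanied by a loss of transcripts of the muscle programme. Genes that were lower with the DUX factors are described here apart from induced genes.

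The 12 libraries of polyadenylated RNA came from a canine myoblast line, the proliferating precursor cells of skeletal muscle. All cells carried the lentiviral vector pCW57.1, whose insert is switched on by doxycycline, and the insert was luciferase (the negative control), human DUX4, DUXC or DUXC-ALT, with 3 libraries each. The labels conflict on doxycycline: the protocol text lists 1 ug/ml for 24 hours throughout, but the luciferase libraries are tagged as having had no doxycycline. Every contrast with luciferase may therefore hold a difference in doxycycline as well as in the insert. For genes lowered in all 3 factor groups the insert and doxycycline cannot be told apart by this design. The contrasts between factors do not carry that difference. The labels do not say that replicates were separate cultures or how many clones a line held, so p-values measure the spread between these libraries, which may be technical.

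The gene rows carry no names in the tables as used here, so members are cited by their row number in the DUX4 table, counted below the header. No gene function, muscle marker list, genome position or sequence is given for them. The member rows ran from 319 to 16529, 0 of them were next to each other, and 0 shared all 12 counts with another member. Total gene counts per library ranged from 15556477 to 20591033. Replicates of a group correlated at 0.997 to 0.998 across genes on a log scale, and no pair was a copy, since chi-square per degree of freedom between them was 1.40 to 2.49 times that of pure counting noise. By total-count scaling the median log2 ratio to luciferase over all 12138 rows was -0.04 under DUX4, -0.02 under DUXC and 0.08 under DUXC-ALT.

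Taken as a group, the members held 4035, 3787 and 3862 CPM in the luciferase libraries. The DUX4 libraries held 987, 985 and 999 CPM, the DUXC libraries 1406, 1411 and 1368 CPM, and those of DUXC-ALT 1475, 1466 and 1455 CPM. All 9 factor libraries lay far below the luciferase libraries, and the DUX4 libraries lay lowest. The group means (± SD, n = 3) were 3895 ± 127 CPM in luciferase, then 990.2 ± 7.69 CPM under DUX4, 1395 ± 23.5 CPM under DUXC and 1465 ± 9.97 CPM under DUXC-ALT. DUX4 thus held 0.254 times the luciferase sum, DUXC 0.358 times and DUXC-ALT 0.376 times. Row 7584, the member with the most reads, set much of the distance between DUX4 and the other factors. Without it the sums stood at 0.302, 0.335 and 0.344 times luciferase. In whole cultures, fewer cells expressing a gene and less RNA of it per cell cannot be told apart.

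The rule fixed an upper limit of 0.5 for every ratio, and most members lay well under it. At that limit, 4.46% of the 12138 rows passed with DUX4, 4.38% with DUXC, 2.67% with DUXC-ALT and 0.741% with all 3, which are the members. The 90 members made up 16.6% of the 541 rows that passed with DUX4, 16.9% of the 532 under DUXC and 27.8% of the 324 under DUXC-ALT. The comparisons share their luciferase libraries, so these shares are a description only. The median ratio over the members was 0.268 for DUX4, compared with 0.304 for DUXC and, for DUXC-ALT, 0.327. On the log2 scale the interquartile range ran from -2.53 to -1.45 under DUX4, -2.14 to -1.30 under DUXC and -2.40 to -1.32 under DUXC-ALT. At most 0.25 times luciferase was reached by 41 members under DUX4, 31 under DUXC, 30 under DUXC-ALT and 13 with all 3. At most 0.125 times was reached by 13, 11 and 11 members and by 7 with all 3. In 89 of the 90 members every factor library lay below every luciferase library, as it did in 9.96% of all 12138 rows. The exception, row 8435, had 11, 23 and 25 luciferase reads and between 2 and 10 reads in the factor libraries.

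**Figure D1:**
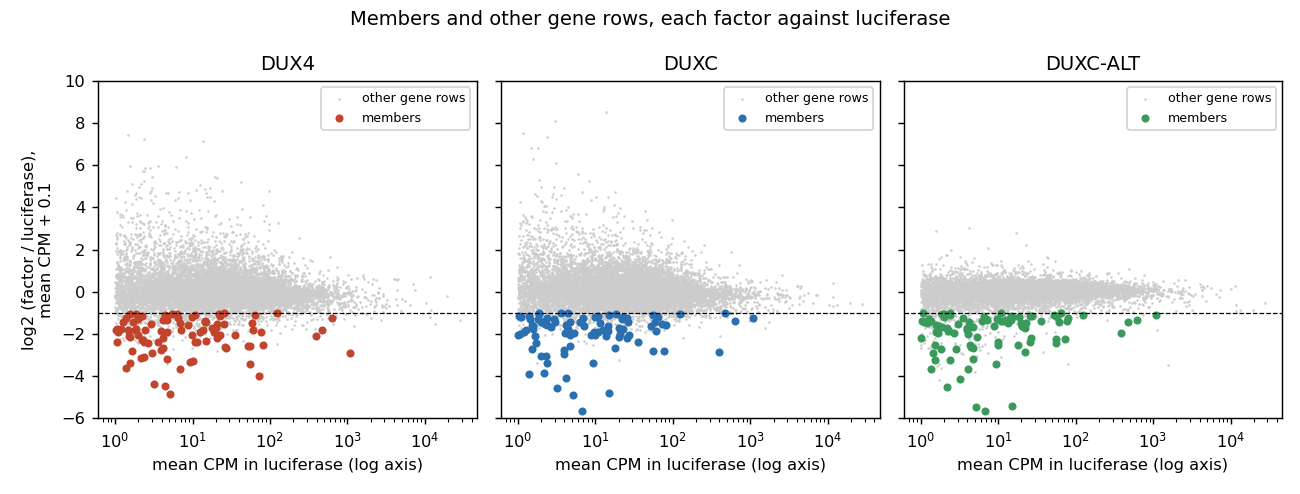
Each panel plots the log2 ratio of a factor to luciferase (mean CPM + 0.1) against the mean luciferase CPM on a log axis for the 90 members (coloured) and the other rows of at least 1 CPM (grey). The dashed line is the limit of 0.5; all members lie on or below it by the rule, and their medians are at 0.268, 0.304 and 0.327 times luciferase.

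Members were found at all expression levels, and more often among rows with few reads. They made up 29 of 1294 rows (2.24%) with 1 to 3 CPM in luciferase and 24 of 2147 rows (1.12%) with 3 to 10 CPM. Above that they made up 22 of 3278 rows (0.671%) with 10 to 30 CPM and 15 of 5419 rows (0.277%) with 30 CPM or more. The median of the highest of a member's 3 ratios was 0.406, 0.368, 0.393 and 0.427 in these classes, values that the rule holds under 0.5 in every class. Members had a median of 6.38 CPM in luciferase, against 24.7 CPM over all 12138 rows. With the factors their medians were 1.89 CPM (DUX4), 1.69 CPM (DUXC) and 1.43 CPM (DUXC-ALT), and 41, 38 and 39 members lay under 1 CPM. The median coefficient of variation between replicates was 10.9% in luciferase and 19.3%, 19.6% and 18.3% with DUX4, DUXC and DUXC-ALT. Counts this low limit what can be said of the weaker members. With 1 CPM added in place of 0.1, 54 rows met the rule, and with a luciferase minimum of 5 CPM, 48 did.

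The limit of 0.5 ran through a continuous range of values. Just inside it lay row 5794 with a highest ratio of 0.499, row 8744 with 0.499 and row 8018 with 0.498. Just outside lay row 11190 with 0.502, row 2867 with 0.502 and row 4850 with 0.504. These outer rows were close to members in the other ratios too, such as row 2867 at 0.315 under DUX4 and 0.331 under DUXC.

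Because every library took part in the choice, the rule was also applied to only 2 replicate numbers of each group, and the chosen rows were measured in the libraries of the number left out. With replicate 1 left out, 83 rows were chosen, and 67 of them stood at 0.5 times luciferase or less with all 3 factors in replicate 1, as 0.939% of all 12138 rows did. Taken singly, 76 did so under DUX4 (5.12% of all rows), 74 under DUXC (4.91%) and 75 under DUXC-ALT (3.21%). With replicate 2 left out, 58 of 90 chosen rows did so in replicate 2, against 0.700% of all rows, and the single factors gave 77 (4.61%), 74 (4.91%) and 71 (3.02%) in the same order. With replicate 3 left out, 61 of 96 did so in replicate 3, against 0.692%, and the single factors gave 84 (4.74%), 80 (4.70%) and 81 (2.94%). The other chosen rows mostly stayed below luciferase without reaching the limit. All 3 factors were under luciferase in 82 of 83, 90 of 90 and 93 of 96 rows.

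In these left-out libraries the median log2 ratio for DUX4 was -2.10, -1.78 and -1.81. For DUXC it was -1.72, -1.62 and -1.66, and for DUXC-ALT -1.70, -1.44 and -1.66. Over all rows the corresponding medians lay between -0.04 and 0.08. In the libraries used for the choice the medians were -1.90, -1.90 and -1.93 for DUX4, -1.65, -1.72 and -1.70 for DUXC, and -1.57, -1.59 and -1.60 for DUXC-ALT. The median of the highest of the 3 log2 ratios went from -1.29, -1.37 and -1.35 in the libraries used to -1.38, -1.16 and -1.20 in those left out, so it was nearer to 0 in replicates 2 and 3 and farther from it in replicate 1. The doxycycline tag differs in these libraries as well.

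**Figure D2:**
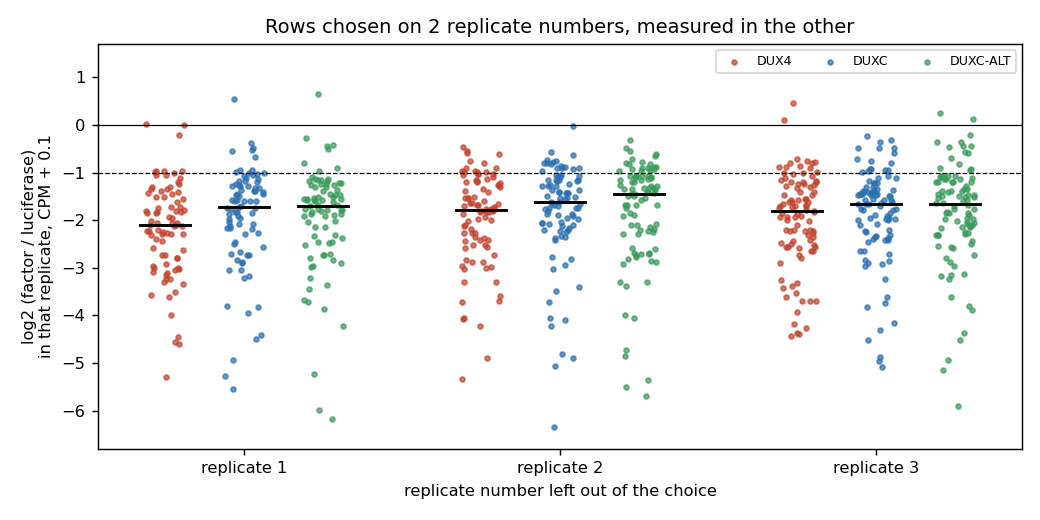
Points are the log2 ratios of factor to luciferase (CPM + 0.1) in the replicate left out, for the 83, 90 and 96 rows chosen on the other replicate numbers; black bars are medians and the dashed line is the limit of 0.5. Medians lie between -2.10 and -1.44, and few points reach 0.

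The 10 members with the lowest shared ratios, ranked by the highest of the 3 ratios, ran from row 319, with at most 2 reads in any factor library, to row 6250, at 0.197 times luciferase under DUX4. Row 319 had 117, 77 and 95 reads in the luciferase libraries. It had 1, 1 and 2 reads under DUX4, 2, 1 and 1 under DUXC, and 0, 0 and 1 under DUXC-ALT. No factor library came near a luciferase library, and the single DUXC-ALT read gave a ratio of 0.00349 with an exact interval at 95% of 8.81e-05 to 0.0196. Such intervals and the bounds below cover counting error only. They and their ratios use reads pooled over the group, without the 0.1 CPM added elsewhere. With 0.1 CPM added, row 319 stood at 0.0226 times luciferase under DUXC-ALT.

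Row 2019 had 70, 48 and 63 luciferase reads and 1, 1 and 1 reads under DUX4. It had 0, 1 and 1 reads under DUXC and 4, 0 and 1 under DUXC-ALT. The 3 DUX4 reads gave a ratio of 0.0188 (0.00385 to 0.0559), and the 2 DUXC reads 0.0116 (0.00140 to 0.0426). This row thus held only a few reads in each factor group.

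Row 8589 had 27, 27 and 23 luciferase reads, and 1 read over all DUX4 libraries, 0 over all DUXC libraries and 1 over all DUXC-ALT libraries. Against a floor of 3 reads over the group it was at least 24.4-fold lower with DUXC. Row 5926 had 33, 44 and 45 luciferase reads, then 1, 5 and 2 under DUX4, 2, 1 and 0 under DUXC, and 0, 0 and 0 under DUXC-ALT. It was at least 40.3-fold lower with DUXC-ALT on the same floor. These were the 2 members with no read in a factor group.

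Row 7869 kept a measurable level that was close in all 3 groups. It had 171, 155 and 207 luciferase reads, then 14, 12 and 15 under DUX4, 19, 14 and 11 under DUXC, and 12, 20 and 11 under DUXC-ALT. The factor groups overlapped one another. The level went from 9.40 ± 0.572 CPM in luciferase to 0.834 ± 0.161, 0.813 ± 0.188 and 0.782 ± 0.324 CPM (SD, n = 3). Its log2 difference between DUX4 and DUXC was 0.07, with an interval from -0.59 to 0.72, and the DUX4 minus DUXC-ALT interval ran from -0.48 to 0.83, so a difference of 2-fold lay outside both. Row 11282, with 59, 33 and 42 luciferase reads, had between 1 and 7 reads in every factor library, and its DUX4 minus DUXC interval ran from -1.09 to 2.11, so a difference of 2-fold was not excluded.

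Others in this group were lost with some factors and only lowered with another. Row 12037 had 133, 138 and 110 luciferase reads, and 10, 7 and 5 under DUX4. With DUXC it had 1, 0 and 1 reads and with DUXC-ALT 0, 1 and 1. The log2 level under DUX4 exceeded that under DUXC by 3.40 ± 0.78 (SE, edgeR), which rests on 2 DUXC reads. It is given as a description, since row 12037 entered the fit through luciferase, where the rule makes members high. Row 11574 had 80, 73 and 80 luciferase reads, 7, 12 and 9 under DUX4, 4, 1 and 3 under DUXC, and 4, 3 and 6 under DUXC-ALT. Here too the DUX4 libraries were the highest of the 9.

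**Figure D3:**
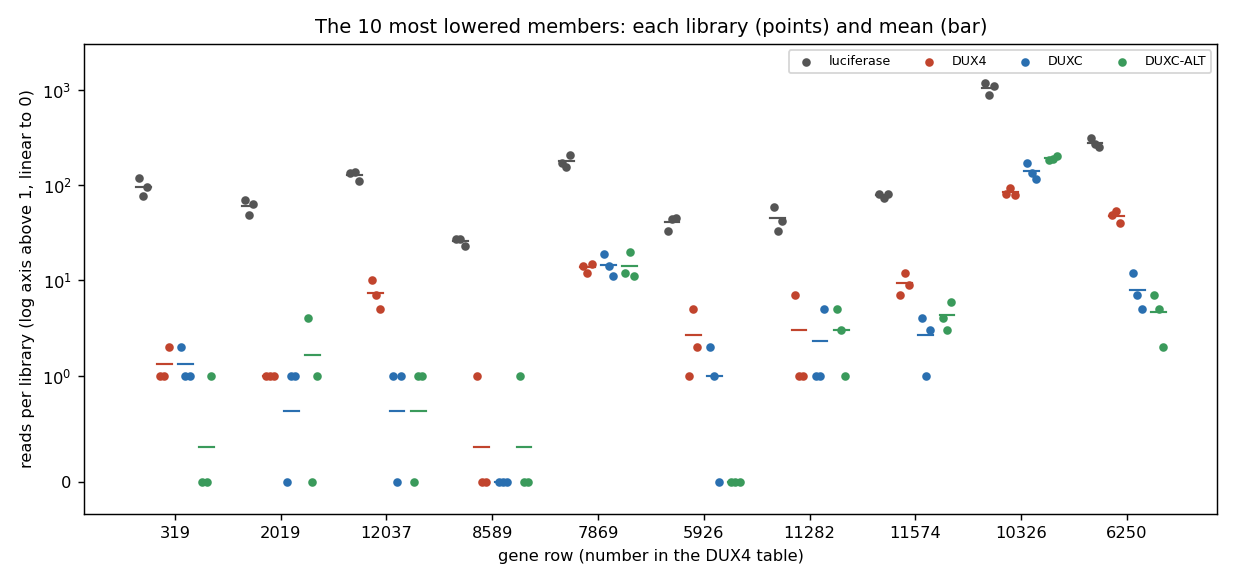
Reads per library (points; bars are group means) for the 10 members with the lowest shared ratios, on an axis that is logarithmic above 1 and linear down to 0. Luciferase libraries lie above all factor libraries in each row; rows 12037 and 6250 are higher with DUX4 than with the other factors, and row 10326 is lowest with DUX4.

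The members with the highest luciferase CPM were lowered to levels that replicates resolved finely. CPM are not corrected for gene length. Row 7584 ranked at 93 among all joined rows by luciferase CPM. It stood at 1121, 1045 and 1095 CPM in the luciferase libraries. With DUX4 it stood at 148, 133 and 146 CPM, with DUXC at 450.2, 471 and 443 CPM, and with DUXC-ALT at 505, 494 and 497 CPM. The groups did not overlap, and DUX4 lay far below the other factors. DUX4 minus DUXC was -1.62 ± 0.03 in log2 units (± SE, edgeR adjusted p = 3.11e-55), and DUX4 minus DUXC-ALT was -1.74 ± 0.03.

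Row 8417 stood at nearly the same lower level in all 3 factor groups. It stood at 628, 625 and 633 CPM in luciferase, 254, 261 and 269.7 CPM under DUX4, 244, 236 and 247 CPM under DUXC, and 254, 242 and 249 CPM under DUXC-ALT. All 9 factor libraries lay within a narrow band. DUXC and DUXC-ALT differed by a log2 of -0.02, with an interval from -0.08 to 0.04, while DUX4 exceeded DUXC by a small 0.17 ± 0.03 (SE; edgeR adjusted p = 4.33e-07). Row 7282 was similar, with a DUX4 minus DUXC-ALT difference of 0.17 ± 0.05 (SE; edgeR adjusted p = 0.000613), at 125 ± 6.45 CPM in luciferase and 61.7 ± 2.57, 59.1 ± 2.36 and 57.7 ± 1.996 CPM under DUX4, DUXC and DUXC-ALT (SD, n = 3). Row 8744 went from 64.1 ± 3.30 to 29.4 ± 2.004, 28.2 ± 0.521 and 31.9 ± 0.719 CPM.

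Row 14256 stood at 473, 458 and 473 CPM in luciferase and 133, 131 and 131 CPM under DUX4. With DUXC it stood at 229.7, 245 and 217 CPM, and with DUXC-ALT at 169.8, 172 and 171 CPM. The order DUX4, DUXC-ALT, DUXC held without overlap, and each neighbouring pair passed the test. Row 6388 was again lowest with DUX4 but highest with DUXC-ALT. It stood at 80.8 ± 7.57 CPM in luciferase, 13.7 ± 0.333 under DUX4, 26.6 ± 2.35 under DUXC and 34.4 ± 0.707 under DUXC-ALT (SD, n = 3).

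DUXC gave the lowest level in other members of this group. Row 8576 stood at 416, 376 and 376 CPM in luciferase. It stood at 88.5, 93.5 and 87.4 CPM under DUX4, 56.4, 49.1 and 57.2 CPM under DUXC, and 103, 99.1 and 96.4 CPM under DUXC-ALT. The DUXC libraries lay below all others, by a log2 of -0.86 ± 0.05 against DUXC-ALT (SE; edgeR adjusted p = 4.80e-16). Row 1914 stood at 75.5, 78.2 and 77.2 CPM in luciferase, 21.0, 19.7 and 20.6 under DUX4, 11.8, 10.96 and 10.3 under DUXC, and 29.0, 28.6 and 29.3 under DUXC-ALT. DUXC was again the lowest, and DUXC minus DUXC-ALT was -1.37 ± 0.07 (± SE, edgeR adjusted p = 4.51e-33). Row 7679 went from 60.7 ± 5.94 CPM to 16.9 ± 1.16 under DUX4 and 16.7 ± 1.64 under DUXC, and stood higher, at 22.5 ± 0.145, with DUXC-ALT (SD, n = 3).

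**Figure D4:**
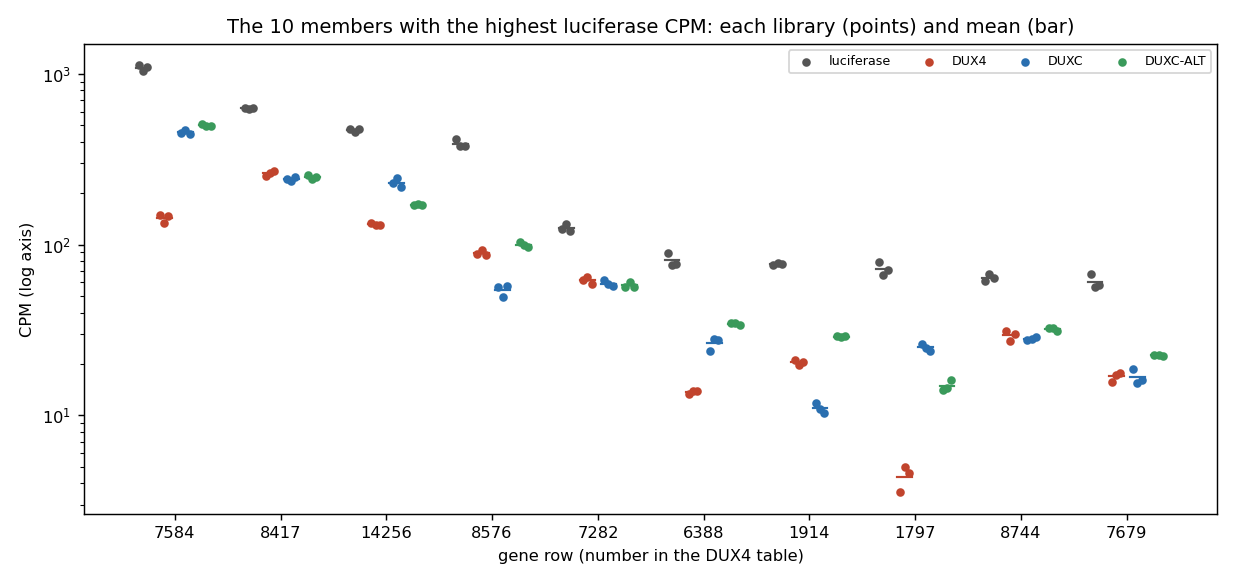
CPM per library on a log axis (points; bars are group means) for the 10 members with the highest luciferase CPM. The factor groups lie close together in rows 8417, 7282 and 8744, DUX4 is lowest in rows 7584, 14256, 6388 and 1797, and DUXC is lowest in rows 8576 and 1914.

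The direct comparison asked how far the factors that lower the same genes do so to the same level. All 90 members entered the 12-library fit, because there a row could pass the filter on low counts through its luciferase libraries, in which the rule makes members high. The counts below are therefore a description. When only the 6 libraries compared were fitted, 67 members passed for DUX4 against DUXC, 64 for DUX4 against DUXC-ALT and 65 for DUXC against DUXC-ALT. Of these, 40 (17 higher and 23 lower with DUX4), 42 (16 and 26) and 35 (12 and 23, higher and lower with DUXC) were called, or 59.7%, 65.6% and 53.8%, against 66.1%, 75.7% and 76.8% of all rows tested in those fits. By direction, 4398 of all 13324 rows were higher and 4412 lower with DUX4 than with DUXC. For DUX4 against DUXC-ALT it was 4983 and 4972 of 13157, and for DUXC against DUXC-ALT 5026 and 5078 of 13148. The log2 differences are relative to TMM scaling, under which the median over rows of at least 1 CPM was 0.06 for DUX4 minus DUXC, -0.06 for DUX4 minus DUXC-ALT and -0.06 for DUXC minus DUXC-ALT. A difference counted as a call at an adjusted p under 0.05 (edgeR quasi-likelihood test, Benjamini-Hochberg over 13592 rows).

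Between DUX4 and DUXC, 24 members were higher and 21 lower with DUX4, so 45 of 90 were called. Of all tested rows 66.1% were called, and of those with at least 1 CPM in luciferase 67.1% (39.3% higher and 27.8% lower with DUX4). The median difference over the members was 0.07. Calls of more than 2-fold numbered 18, or 20.0% of the members, against 8.30% of the 12138 rows, with 8 higher and 10 lower with DUX4, where 4.10% of the rows were higher and 4.20% lower. Shares of calls over 2-fold are split by luciferase level below. The rule caps a member's level in each factor group, without setting the order of the groups. The 12138 rows have no such cap and include rows raised by a factor. Their shares by direction and size, here and below, are therefore not a matched background.

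Between DUX4 and DUXC-ALT, 21 members were higher and 30 lower with DUX4, so 51 were called, against 73.2% of all tested rows and 74.7% of rows of at least 1 CPM (34.1% higher and 40.6% lower). The median difference was -0.17. Calls of more than 2-fold numbered 25, or 27.8%, against 12.6%, with 12 higher and 13 lower with DUX4, where 10.8% of the 12138 rows were higher and 1.82% lower. Between DUXC and DUXC-ALT, 15 members were higher and 25 lower with DUXC, so 40 were called, against 75.5% of all tested rows and 77.7% of rows of at least 1 CPM (35.8% higher and 41.8% lower). The median difference was -0.05, and 15 calls (16.7%, against 14.2%) exceeded 2-fold. Of these, 9 were higher and 6 lower with DUXC, where 10.6% of the rows were higher and 3.64% lower. Within each luciferase level given below, the members' share of such calls lay under that of the rows.

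The calls were also counted by luciferase level. In the 37 members of at least 10 CPM in luciferase, 28 were called between DUX4 and DUXC (75.7%, against 71.7% of the 8697 rows at that level). For DUX4 against DUXC-ALT the count was 29 (78.4%, against 80.5%), with 9 higher and 20 lower with DUX4 where 32.5% of rows at that level were higher and 48.0% lower, and for DUXC against DUXC-ALT it was 26 (70.3%, against 83.5%). In the 53 members under 10 CPM the counts were 17, 22 and 14, or 32.1%, 41.5% and 26.4%, against 55.4%, 60.0% and 63.1% of the 3441 rows at that level. Their median SE of the log2 difference between DUX4 and DUXC was 0.42, against 0.15 over those rows. Calls of more than 2-fold, in the same order of pairs, made up 20.8%, 32.1% and 22.6% of these 53 members. Of the 3441 rows they made up 17.3%, 23.6% and 24.1%. At 10 CPM or more they made up 18.9%, 21.6% and 8.11% of the 37 members, against 4.73%, 8.26% and 10.3% of the 8697 rows. The part of depth in these shares was not tested.

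Over the 3 pairs together, 65 members differed between at least 1 pair, since 25 had no call, against 8.03% of the 12138 rows without one. Only 1 of the 37 members of at least 10 CPM was without a call (2.70%, against 4.15% of rows at that level), and 24 of the 53 under 10 CPM were (45.3%, against 17.8%). Of the 25, 6 had intervals within 2-fold for all 3 pairs, row 7869 among them, and for the other 19 a difference of 2-fold was not excluded at this depth. DUX4 lay below both other factors in 18 members (20.0%, against 12.1% of all 12138 rows). DUXC lay below both in 9 (against 23.4%) and DUXC-ALT in 8 (8.89%, against 24.7%). DUX4 lay above both in 13 (against 18.0%), DUXC in 8 (against 18.5%) and DUXC-ALT in 15 (against 30.8%). All 3 pairs were called in 19 members (21.1%, against 42.5%). All shares in this paragraph come from the 12-library fit, which members could enter through luciferase. Those for the order of the factors and for all 3 pairs were not split by luciferase level. The 12138 rows also lack the cap that the rule sets on members.

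**Figure D5:**
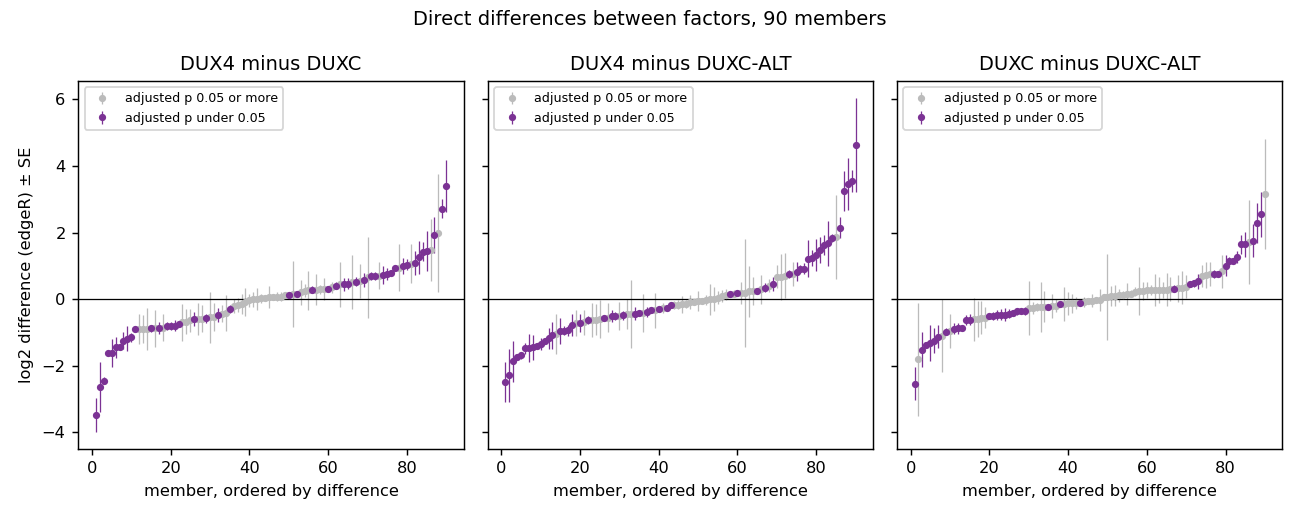
Log2 differences (edgeR estimate; bars are SE) between factors for the 90 members, ordered within each panel; purple points have an adjusted p under 0.05. Called members lie on both sides of 0 in each panel, 24 and 21 for DUX4 minus DUXC, 21 and 30 for DUX4 minus DUXC-ALT, and 15 and 25 for DUXC minus DUXC-ALT.

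The members with the largest gaps between factors show these patterns in single libraries. Row 1797 was lowest with DUX4. It stood at 79.0, 66.2 and 71.1 CPM in luciferase, 3.54, 4.96 and 4.56 under DUX4, 26.3, 24.8 and 23.8 under DUXC, and 14.1, 14.5 and 16.1 under DUXC-ALT. All 4 groups were separate. DUX4 minus DUXC was -2.46 ± 0.10 (SE; edgeR adjusted p = 7.85e-35), and DUXC minus DUXC-ALT was 0.76 ± 0.08.

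Row 12576 had 84, 68 and 99 luciferase reads and was down to 3, 0 and 2 reads under DUX4. It kept 31, 16 and 20 reads under DUXC and 14, 9 and 12 under DUXC-ALT. Its DUX4 minus DUXC difference of -3.49 ± 0.51 (SE; edgeR adjusted p = 2.56e-09) rests on 5 DUX4 reads. Row 12965 fell least with DUXC-ALT. It stood at 27.1 ± 4.995 CPM in luciferase, 4.18 ± 0.792 under DUX4, 6.51 ± 0.887 under DUXC and 12.2 ± 1.25 under DUXC-ALT (SD, n = 3).

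Row 10326, one of the 10 with the lowest shared ratios, followed the same order at 55.2 ± 6.13 CPM in luciferase, 5.05 ± 0.0576 under DUX4, 7.80 ± 1.23 under DUXC and 10.3 ± 0.917 under DUXC-ALT (SD, n = 3).

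In the opposite direction, DUX4 left several members higher than the canine factors did. Row 6250 had 312, 272 and 252 luciferase reads, 49, 53 and 40 under DUX4, 12, 7 and 5 under DUXC, and 7, 5 and 2 under DUXC-ALT. The DUX4 libraries lay above the other factor libraries, by 2.71 ± 0.29 over DUXC and 3.55 ± 0.32 over DUXC-ALT (SE; edgeR adjusted p = 3.25e-14 and 2.04e-17). DUXC and DUXC-ALT overlapped there. Row 12392 had 100, 79 and 89 luciferase reads, 23, 33 and 35 under DUX4, 9, 15 and 14 under DUXC, and 8, 6 and 10 under DUXC-ALT. It was higher with DUX4 than with DUXC by 1.42 ± 0.29 and than with DUXC-ALT by 2.15 ± 0.32.

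Row 722 formed a ladder. It stood at 23.7, 20.6 and 23.1 CPM in luciferase, 9.28, 9.92 and 10.99 under DUX4, 5.22, 6.97 and 7.19 under DUXC, and 2.90, 2.95 and 3.05 under DUXC-ALT. No groups overlapped, and DUX4 exceeded DUXC-ALT by 1.83 ± 0.13 (SE; edgeR adjusted p = 2.06e-23).

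DUXC and its isoform DUXC-ALT were lowest in different members. Row 2613 stood at 4.39 ± 1.25 CPM in luciferase, 1.999 ± 0.315 under DUX4, 2.13 ± 0.737 under DUXC and 0.678 ± 0.0617 under DUXC-ALT (SD, n = 3). DUXC exceeded DUXC-ALT by 1.64 ± 0.29 (SE; edgeR adjusted p = 6.34e-07). Row 9572 showed the same order at 2.90 ± 0.466, 0.951 ± 0.222, 1.12 ± 0.236 and 0.361 ± 0.153 CPM in those 4 groups. Row 1070 had 197, 163 and 204 luciferase reads, 33, 53 and 32 under DUX4, 95, 71 and 64 under DUXC, and 39, 32 and 30 under DUXC-ALT, so DUXC was the highest of the factors.

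The reverse held for row 2107. It had 72, 54 and 101 luciferase reads, 17, 19 and 15 under DUX4, 7, 10 and 10 under DUXC, and 21, 25 and 17 under DUXC-ALT. DUXC lay lowest, by -1.14 ± 0.34 against DUXC-ALT (SE; edgeR adjusted p = 0.00209). Row 8964 had 72, 80 and 70 luciferase reads, 8, 6 and 9 under DUXC, and 16, 21 and 21 under DUXC-ALT. Its DUX4 libraries were uneven at 1, 10 and 14 reads, so DUX4 could not be placed against DUXC, with an interval of the difference from -0.65 to 1.21.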

How the data were processed

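Raw read counts per gene row were used as the authors deposited them, in 3 tables, 1 per factor, that each repeat the luciferase columns. The submitters' processing notes name canFam3, CASAVA, TopHat2 2.1.0, Bowtie2 2.2.6 and DESeq2. How reads were counted, and whether by strand, is not given in the sources used here, so overlapping or near-identical genes may share reads. The 3 normalized gene tables and 6 repeat tables were not used. Rows with at least 7 luciferase reads have the same order and luciferase counts in all 3 tables and were joined by position. CPM used each library's whole-table total.

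Factors were compared with edgeR 4.0.16 in R 4.3.3 (12 libraries in 1 fit of 4 groups, TMM, filterByExpr, robust quasi-likelihood test, Benjamini-Hochberg adjustment at 0.05), tested first on simulated data. SE and 95% intervals were derived from the F statistic. DESeq2 1.42.0, other scalings and left-out libraries were alternatives. Named rows were the 10 with the lowest highest ratio, the 10 with the highest luciferase CPM, the 3 largest called differences without overlap (at least 1 CPM in the higher group) per pair and direction, and 3 rows on each side of the limit. Rows 8435 and 2867 were singled out after their values were seen. Members and rules were chosen with earlier results of these data known. Lists of muscle and other cell markers could not be applied to rows without names.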

Additional observations from a re-analysis of the deposited data

Results flagged for a closer look

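For 18 named differences, the fall from luciferase differed between factors in the direct edgeR test, as log2 differences adjusted over 13592 rows. The members were picked for the size of these differences. DUX4 exceeded DUXC by 2.71 in row 6250, 1.42 in row 12392 and 1.07 in row 2107, and the difference was -3.49 in row 12576, -2.46 in row 1797 and -1.62 in row 7584. DUX4 minus DUXC-ALT was 3.55 in row 6250, 2.15 in row 12392 and 1.83 in row 722, and -1.74 in row 7584, -1.69 in row 1797 and -1.48 in row 12965. DUXC minus DUXC-ALT was 1.64 in row 9572, 1.64 in row 2613 and 1.26 in row 1070, and -1.37 in row 1914, -1.25 in row 8964 and -1.14 in row 2107.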

How the results depend on the processing

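The number of members was 90. It fell to 54 with 1 CPM added in place of 0.1 and to 48 with a luciferase minimum of 5 CPM, by construction subsets of the 90. It was 108 with TMM scaling and 107 with DESeq2 size factors, both holding all 90, and 83 to 97 without 1 library or 1 replicate number. The rows chosen were then partly others. Without replicate number 1, 2 or 3, the 83, 90 and 96 rows held 75, 81 and 80 of the 90. Without 1 library, 80 to 90 of them were kept. Counts of members called between factors stayed within 1.5 times under every alternative run. DUX4 against DUXC gave 24 higher and 21 lower, 18 and 20 with DESeq2, 17 and 23 when fitted on only the 6 libraries compared (67 members passing the filter), and 21 to 23 and 18 to 22 without 1 library. DUX4 against DUXC-ALT gave 21 and 30, 18 and 28 with DESeq2, 16 and 26 on 6 libraries (64 members), and 16 to 22 and 26 to 29 without 1 library. DUXC against DUXC-ALT gave 15 and 25, 15 and 22 with DESeq2, 12 and 23 on 6 libraries (65 members), and 14 to 16 and 23 to 25 without 1 library. Replicate numbers did not pair the libraries: deviations of same-numbered libraries correlated at -0.124 to 0.0221, and 2 of 12 libraries were closest to their own number. With replicate number as a block the counts were 24 and 22, 21 and 30, and 15 and 25. Each of the 18 named differences kept its direction and call in the 12 alternatives run for it. The 38 to 41 members under 1 CPM with a factor are limited by depth.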
